A study of Mus musculus with 19 samples.

Results

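Expression of 8 genes of the angiotensin and endothelin systems, Agt, Ace, Agtr1a, Edn1, Edn3, Ednra, Ednrb and Ece1, was followed in the left ventricle of mice with a narrowed aorta. The genes were taken by symbol, and every probe set that the platform annotation assigns to exactly 1 of these symbols was read. Of the 8 genes, 7 had such a probe set, and together they had 15 of the 45101 probe sets on the array. Ednra, which encodes the type A endothelin receptor, is not analysed here. Of the 15 probe sets, 12 passed a filter on low signal (log2 above 4 on at least 5 arrays), which left 6 of the 8 genes among the 10733 genes tested, and Agt was below it on every array. For a gene with several probe sets, the brightest on average over the 19 arrays was taken as its measure, and the others were read beside it.

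All mice were male C57BL/6, had surgery at an age of 7 weeks and were killed 4 weeks later, and RNA came from the left ventricle with the right ventricle and atria removed. The 3 groups were 5 mice with a sham operation, 7 mice with aortic banding and no heart failure, and 7 mice with aortic banding and heart failure. The labels carry no genotype or drug, and they do not say how heart failure was defined. A banded aorta makes the left ventricle eject against a higher pressure, so each comparison with sham describes a ventricle under pressure overload, and the comparison of both banded groups asks what differed when the heart had failed. Each mouse gave 1 array, so replicates are separate animals. Since this is whole ventricular tissue, a change in the share of a cell type and a change in RNA per cell cannot be told apart.

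Agt encodes angiotensinogen, from which renin cuts angiotensin I, and the angiotensin-converting enzyme encoded by Ace turns that peptide into angiotensin II. Angiotensin II acts on the heart and vessels mainly through the type 1 receptor, whose main rodent form is encoded by Agtr1a, a Gq-coupled receptor that constricts vessels and promotes growth of heart muscle and fibrosis. The endothelins are short vasoconstrictor peptides made as longer precursors from Edn1, Edn2 and Edn3 and released by the endothelin-converting enzyme encoded by Ece1. They bind type A receptors, which constrict, and type B receptors, encoded by Ednrb, which on endothelium release nitric oxide and clear the peptide, and which bind endothelin 3 as well as endothelin 1.

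The arrays differed in ways that the groups do not fully explain. On the 18S ribosomal RNA control they fell into a set of 6 with a log2 signal of 9.03 to 11.8 (sham mice 1 to 3 and banded mice 5 to 7 without heart failure) and a set of 13 with 5.14 to 7.62, which held all 7 mice with heart failure. The labels name no batch, and ranges of the animal ID numbers in them were cut here into ID series. The high set was made up of all sham mice and all banded mice without heart failure in ID series 1. Mice 1 and 2 with heart failure, also of that series, lay in the low set. The 18S sets and the ID series thus overlap. The 3' minus 5' difference of the actin control, which reflects RNA integrity, ran from 0.943 to 1.02 in the sham group, and after banding from 0.672 to 0.898 without and from 0.661 to 0.905 with failure of the heart, so it cannot be told apart from banding. Values within the 18S sets are given below where they bear on a gene. The filter was passed by 10 of 10 cardiomyocyte markers. So did 13 of 13 endothelial, 11 of 11 fibroblast and 5 of 5 atrial markers, so passing it does not check the dissection.

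On the brightest probe sets, Ace and Ednrb rose in banded hearts without failure. In banded hearts with failure Ace, Ednrb and Edn3 rose while Agtr1a fell. The Ednrb call without failure was lost in 13 of 26 alternative fits or probe sets, and the Edn3 call with failure in 17 of 25. The Edn3 probe sets 1438696_at and 1441923_s_at also rose without failure (limma adjusted p = 6.78e-05 and 0.00607 over all probe sets). For Edn1 and Ece1 no difference passed the test in any comparison, although Edn1 passed with heart failure once the 18S array set was a block. In limma fits with Benjamini-Hochberg adjustment over all genes, 2 of the 6 tested genes passed in banded mice without heart failure against sham, where 17.4% of all genes passed. Both rose, as 10.8% of all genes did. With heart failure 4 of 6 passed against a background of 39.3%: 3 rose, beside 20.4% of all genes, and 1 fell, beside 18.9%. In the third comparison, that between the banded groups, 0 of 6 passed (2 at an unadjusted limma p under 0.05, Ace and Agtr1a) against 9.48%. The median log2 change of the 6 genes was 0.23, 0.43 and 0.13 in these comparisons, and that of all genes 0.02, 0.01 and -0.01. Both comparisons with sham share the same 5 sham arrays, so they are not independent of each other.

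**Figure D1:**
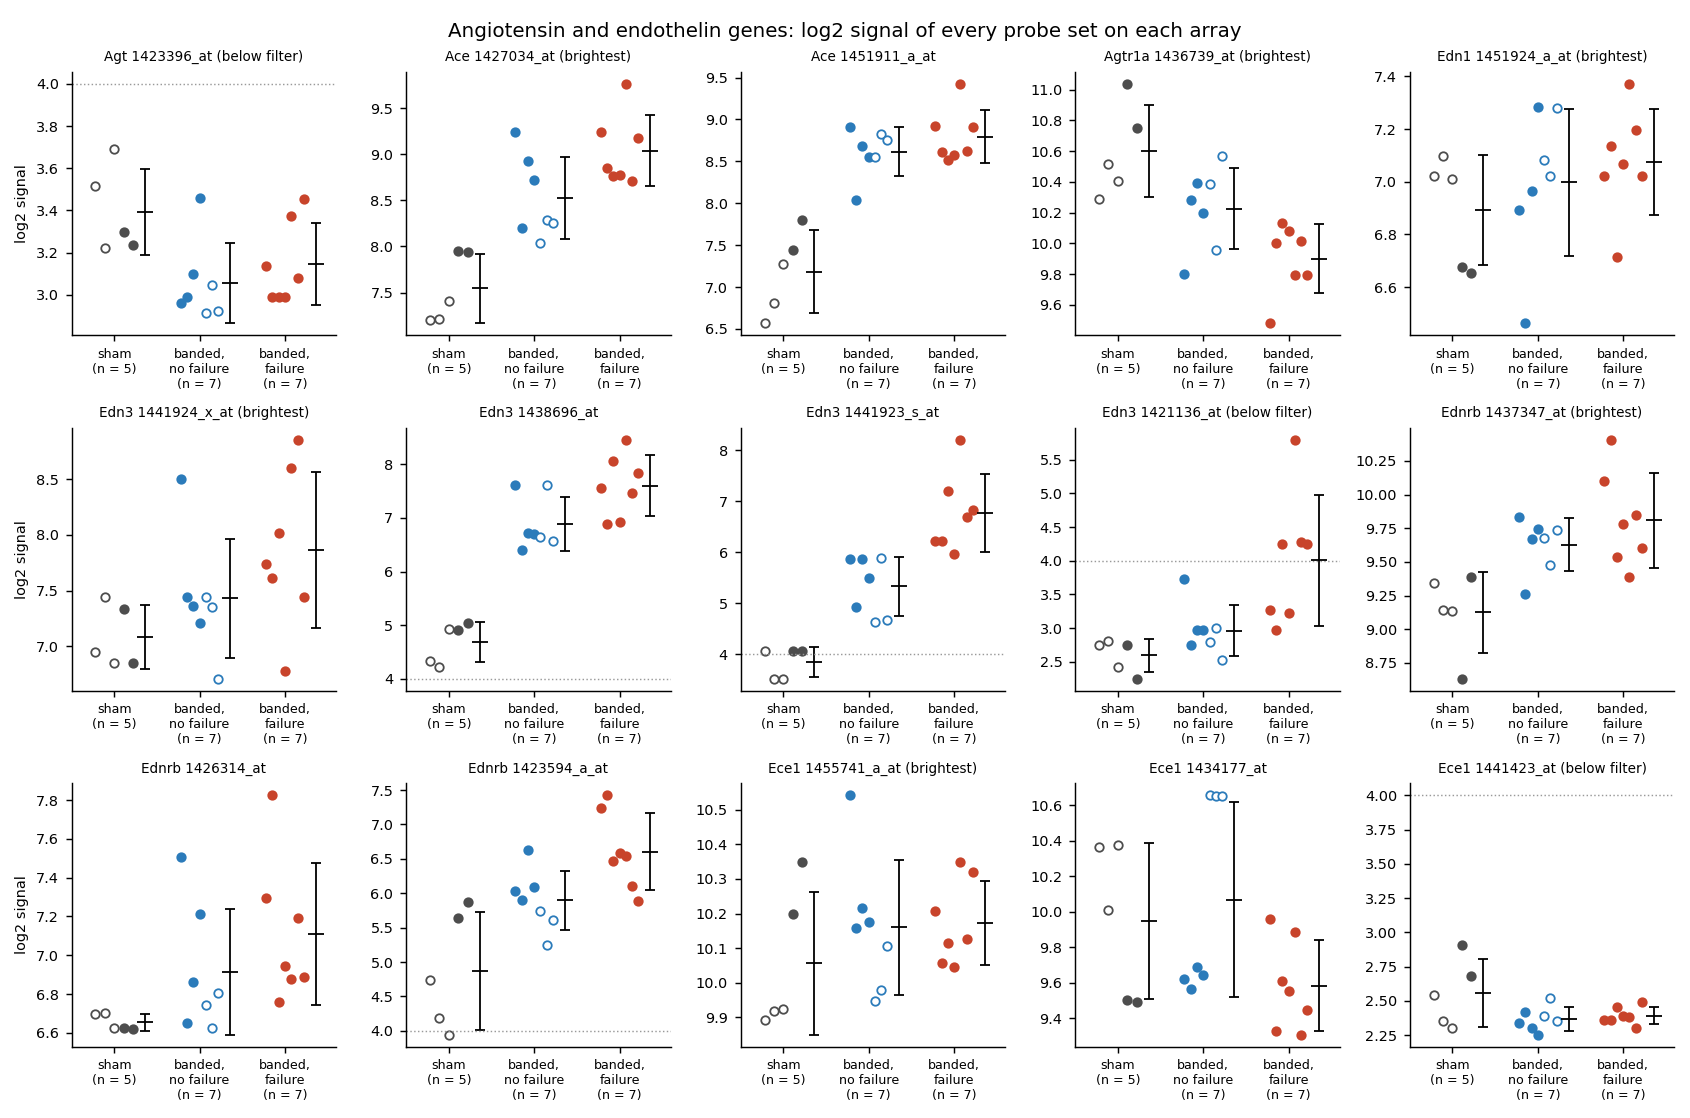
Log2 signal (vertical axes, a separate scale in each panel) of the 15 probe sets on each of the 19 arrays, by group. Each point is 1 mouse, filled for the 13 arrays with a low 18S control and open for the 6 with a high one, the black bar is the group mean with its SD, and the dotted line is the filter at 4. Ace lay above every sham mouse in all banded mice on both probe sets, and Agtr1a lay below every sham mouse in all mice with heart failure.

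The promoter sequences of the 3 genes that rose are shown with that of Edn1, the endothelin gene that did not pass with group as the only term, so that the letters upstream of each can be read beside its values. RefSeq promoter entries matched 7 of the 8 genes, at 11 transcription starts; Agtr1a was not among them. Each line gives the 250 bases before the start, 5′ to 3′ on the gene's strand, in build GRCm38.p6, and for Ace the first of its 2 starts. Capitals mark matches, on either strand, to TATAAA (the TATA box), TGANTCA (an AP-1 site), GATAA (GATA factors), GGAAA (the core of NFAT sites) or CAGAC (SMAD factors).
Ace, chr11:105967698-105967947, plus strand: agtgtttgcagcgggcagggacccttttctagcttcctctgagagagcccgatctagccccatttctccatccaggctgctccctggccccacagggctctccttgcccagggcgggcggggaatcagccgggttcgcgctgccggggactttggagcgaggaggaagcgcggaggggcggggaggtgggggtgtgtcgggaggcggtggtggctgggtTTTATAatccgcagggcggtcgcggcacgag
Edn3, chr2:174760369-174760618, plus strand: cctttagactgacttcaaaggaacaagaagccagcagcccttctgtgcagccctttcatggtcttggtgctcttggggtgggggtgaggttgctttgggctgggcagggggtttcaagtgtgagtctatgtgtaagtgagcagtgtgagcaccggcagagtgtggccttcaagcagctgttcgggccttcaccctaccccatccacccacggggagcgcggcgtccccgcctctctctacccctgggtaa
Ednrb, chr14:103843702-103843951, minus strand: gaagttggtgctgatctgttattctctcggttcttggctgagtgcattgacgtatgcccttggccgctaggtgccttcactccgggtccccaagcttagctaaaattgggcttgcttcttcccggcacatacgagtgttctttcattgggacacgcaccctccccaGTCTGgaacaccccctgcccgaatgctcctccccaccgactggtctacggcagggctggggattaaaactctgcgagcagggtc
Edn1, chr13:42301226-42301475, plus strand: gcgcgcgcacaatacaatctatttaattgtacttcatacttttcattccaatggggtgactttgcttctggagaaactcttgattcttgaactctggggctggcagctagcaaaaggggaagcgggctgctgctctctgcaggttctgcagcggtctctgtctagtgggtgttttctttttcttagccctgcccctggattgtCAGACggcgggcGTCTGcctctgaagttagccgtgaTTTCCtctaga
Ace had 1 TATA box match, on the reverse strand, whose first base lay 31 bases before the start. Edn3 had no match to any of the 5 motifs, Ednrb had 1 SMAD match at 84 bases, and Edn1 had SMAD matches at 47 and 35 bases and 1 NFAT core match at 11 bases. No matches overlapped in these windows. Of 32851 RefSeq promoters of this length, 12.4% held a TATA box match, 6.75% an AP-1 match, 22.6% a GATA match, 55.6% an NFAT core match and 42.2% a SMAD match, so these short motifs are common. The matches describe letters only. The GC content was 67.2% for Ace, 59.2% for Edn3, 56.8% for Ednrb and 50.4% for Edn1, beside a median of 52.4% over all promoters.

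Ace, the converting enzyme, showed the clearest change of the angiotensin genes. On its brightest probe set, 1427034_at, sham mice 1 to 5 had log2 signals of 7.20, 7.22, 7.41, 7.95 and 7.94. Banded mice without heart failure ran from 8.04 to 9.24 with a median of 8.28, and mice with heart failure from 8.71 to 9.76 with a median of 8.85. All 14 banded mice thus lay above all sham mice, while the banded groups overlapped each other. The group means were 7.55 ± 0.38 (SD, n = 5), 8.52 ± 0.45 (n = 7) and 9.04 ± 0.38 (n = 7). Ace was 1.97-fold higher without heart failure (log2 change 0.98 ± 0.22, SE; limma adjusted p = 0.00563) and 2.82-fold higher with it (1.49 ± 0.22, adjusted p = 4.27e-05). Of all genes, 4.63% lay wholly above sham in the first comparison and 8.5% in the second. The difference between the banded groups, 0.52 ± 0.20, did not pass (limma adjusted p = 0.114). It passed without banded mouse 1 without heart failure, which had the highest Ace of its group (0.64, adjusted p = 0.0418, over alternatives from 0.027 to 0.592).

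The other Ace probe set, 1451911_a_at, gave group means of 7.18 ± 0.49 (SD, n = 5), 8.62 ± 0.29 (n = 7) and 8.80 ± 0.32 (n = 7). It was 2.7-fold higher than sham without heart failure (limma adjusted p = 0.00017 over all probe sets, of which 14.2% passed) and 3.07-fold higher with it (adjusted p = 8.97e-06, where 36.4% passed). It differed by 0.18 between the banded groups (limma adjusted p = 0.592). Here too all banded mice lay above all sham mice, as 3.84% of probe sets did without and 7.97% with heart failure, and the 2 probe sets correlated over the 19 arrays with r = 0.907. Ace differed between the 18S sets within a group: sham mice 4 and 5 of the low set had 7.95 and 7.94 on 1427034_at, and sham mice 1 to 3 of the high set 7.20 to 7.41. Within the low set the change on that probe set was 0.82 without (4 mice against 2) and 1.09 with heart failure (7 against 2), and within the high set it was 0.91 without heart failure (3 against 3). The call without heart failure was lost in the low set alone (limma adjusted p = 0.159) and with the actin difference as a covariate (0.29, limma adjusted p = 0.435), over alternatives from 0.00017 to 0.435.

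Agtr1a, the type 1 angiotensin receptor, was lower in failing hearts. Its single probe set, 1436739_at, read 10.29, 10.52, 10.41, 11.04 and 10.75 in sham mice 1 to 5. It ran from 9.80 to 10.57 with a median of 10.28 in banded mice without heart failure and from 9.48 to 10.13 with a median of 10.002 in those with heart failure. Every mouse with heart failure lay below every sham mouse, as was the case for 9.06% of all genes, and 4 of 7 banded mice without heart failure did so too. Means were 10.60 ± 0.30 (SD, n = 5), 10.23 ± 0.27 (n = 7) and 9.90 ± 0.23 (n = 7). Agtr1a was 1.63-fold lower with heart failure than in sham mice (log2 change -0.70 ± 0.15, SE; limma adjusted p = 0.000913).

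Without heart failure the Agtr1a difference from sham, -0.37 ± 0.15, did not pass (limma adjusted p = 0.0827), nor did that between the banded groups, -0.33 ± 0.13 (adjusted p = 0.126). The former was -0.10 within the high 18S set (3 mice against 3) and -0.73 within the low set (4 against 2). It passed with the ID series, a grouping by animal ID number made here, as a block (-0.40, limma adjusted p = 0.0388, over alternatives from 0.0388 to 0.693). The fall with heart failure ranged from -0.99 to -0.59 over its alternatives and passed in all 23.

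Agt, the precursor of all angiotensins, was dim throughout, on its single probe set 1423396_at. Sham mice 1 to 5 read 3.52, 3.22, 3.69, 3.30 and 3.24. Banded mice without heart failure ran from 2.92 to 3.46 with a median of 2.99, and mice with heart failure from 2.99 to 3.45 with a median of 3.08. The groups overlapped, and GCRMA, the authors' summary method, draws such dim values towards a common floor. In a fit with no filter, over probe sets with 1 symbol, the differences from sham of -0.34 without and -0.25 with heart failure did not pass (limma adjusted p = 0.0963 and 0.16).

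Edn1 encodes endothelin 1, the main endothelin of the heart and vessel wall. On 1451924_a_at sham mice 1 to 5 read 7.02, 7.10, 7.01, 6.68 and 6.65, and 4 of the 19 arrays shared the value 7.02377. The range was 6.46 to 7.28 (median 7.02) in banded mice without heart failure and 6.72 to 7.37 (median 7.07) in those with heart failure, so all 3 groups overlapped. The mean differences were small beside the spread between mice. Edn1 differed from sham by 0.11 ± 0.13 (SE) without and by 0.18 ± 0.13 with heart failure (limma adjusted p = 0.616 and 0.285), and by 0.08 ± 0.12 between the banded groups (adjusted p = 0.735).

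The level of Edn1 in sham mice moved with the 18S control. The 2 sham mice of the low 18S set had 6.65 and 6.68, and the 3 of the high set 7.01 to 7.10. With the 18S set as a block, Edn1 was 0.36 higher with heart failure than in sham mice and just passed (limma adjusted p = 0.05 after rounding, over alternatives from 0.05 to 0.652). Within the low set that difference was 0.41 (7 mice against 2), and the part of the 18S split in it was not tested.

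Edn3 encodes endothelin 3, which binds the type B receptor as strongly as endothelin 1 does but the type A receptor weakly. It had 4 probe sets, and they did not give 1 answer. The brightest, 1441924_x_at, carries a suffix that Affymetrix gives to probe sets with probes that can also match other transcripts. It read 6.95, 7.44, 6.85, 7.34 and 6.85 in sham mice 1 to 5. This probe set had only 15 distinct values on the 19 arrays, and 4 arrays, from all 3 groups, shared the value 7.44123. The cause of these ties was not tested. Banded mice without heart failure ran from 6.71 to 8.50 (median 7.36) and those with heart failure from 6.78 to 8.85 (median 7.74). The groups overlapped, but 5 of 7 mice with heart failure lay above all sham mice. Edn3 on this probe set was 1.72-fold higher with heart failure than in sham mice (log2 change 0.78 ± 0.31, SE; limma adjusted p = 0.0497). Without heart failure it differed from sham by 0.35 ± 0.31 (limma adjusted p = 0.465) and from the mice with failure by 0.43 ± 0.28 (adjusted p = 0.342).

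That Edn3 call stood at the edge of the threshold. It was lost in 17 of 25 alternatives (limma adjusted p from 6.25e-07 to 0.942), among them leaving out any 1 of the 5 sham mice or mouse 1, 2, 3, 5 or 6 with heart failure, after which the change was 0.62 to 0.87 (adjusted p 0.0515 to 0.102). With the 18S set as a block it was 0.62 (limma adjusted p = 0.2), and with the actin difference as a covariate -0.05 (adjusted p = 0.942).

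Both other Edn3 probe sets past the filter lay higher in all banded mice than in all sham mice. Of all probe sets, 3.84% lay wholly above sham without and 7.97% with heart failure. On 1438696_at sham mice 1 to 5 read 4.34, 4.22, 4.93, 4.91 and 5.04. Banded mice without heart failure ran from 6.41 to 7.62 (median 6.70), and those with heart failure from 6.89 to 8.46 (median 7.57). The gap between the highest sham mouse and the lowest banded mouse was wider than the whole range of the sham mice. This probe set was 4.62-fold higher without heart failure (log2 change 2.21 ± 0.28, SE; limma adjusted p = 6.78e-05) and 7.56-fold higher with it (2.92 ± 0.28, adjusted p = 6.25e-07). The banded groups differed by 0.71 ± 0.25 (limma adjusted p = 0.103). Within the low 18S set the changes against sham were 1.89 and 2.63, and within the high set 2.44 without heart failure.

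On 1441923_s_at, sham mice 1 to 5 read 4.05, 3.52, 3.52, 4.05 and 4.05, with 3 of 5 above the filter, so no fold against sham is given. The values were 4.63 to 5.89 (median 5.48) in banded mice without heart failure and 5.96 to 8.20 (median 6.69) in those with it. Here the 3 groups did not overlap at all. The mean rose by 1.49 ± 0.33 (SE) without heart failure (limma adjusted p = 0.00607) and by 2.92 ± 0.33 with it (adjusted p = 3.61e-06). This was the only one of the 12 tested probe sets of these genes that passed between the banded groups, where it was 2.7-fold higher with heart failure (1.43 ± 0.30, limma adjusted p = 0.0115). In that comparison 5.91% of all probe sets passed and 0.722% lay wholly above the other group.

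The fourth Edn3 probe set, 1421136_at, did not meet the filter rule, with values of 2.25 to 2.80 in sham mice, 2.52 to 3.72 without heart failure and 2.97 to 5.80 with it. It lay above the filter in 4 of 7 mice with heart failure and in no other mouse. Over the 19 arrays 1438696_at and 1441923_s_at correlated with r = 0.924, and 1441924_x_at correlated with them at 0.598 and 0.666. With the mean of the probe sets past the filter in place of the brightest, Edn3 was higher by 1.35 without heart failure (limma adjusted p = 0.00174) and, between the banded groups, by 0.86 (adjusted p = 0.0295). The size of the Edn3 difference thus depends on the probe set read, and which of them follows the transcript best was not tested.

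Ednrb encodes the type B endothelin receptor, found on endothelium and on some fibroblasts and muscle cells. On its brightest probe set, 1437347_at, sham mice 1 to 5 read 9.35, 9.14, 9.13, 8.63 and 9.38. Banded mice without heart failure ran from 9.26 to 9.83 (median 9.68), with 6 of 7 above all sham mice. Mice with heart failure ran from 9.39 to 10.41 (median 9.78), all above all sham mice, as was the case for 8.5% of all genes. Means were 9.13 ± 0.30 (SD, n = 5), 9.63 ± 0.20 (n = 7) and 9.81 ± 0.35 (n = 7). Ednrb was 1.6-fold higher with heart failure than in sham mice (log2 change 0.68 ± 0.16, SE; limma adjusted p = 0.00248) and 1.42-fold higher without it (0.50 ± 0.16, adjusted p = 0.0376). The banded groups differed by 0.18 ± 0.15 (limma adjusted p = 0.467).

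The rise of Ednrb with heart failure passed in all 25 alternatives (limma adjusted p from 0.000332 to 0.0402), the other probe sets included. That without heart failure was lost in 13 of 26 (adjusted p from 0.0123 to 0.318), among them leaving out sham mouse 2, 3 or 4 or banded mouse 1, 3, 4, 5 or 7, with changes of 0.38 to 0.51 (adjusted p 0.0538 to 0.0937). On 1426314_at the sham mice lay within 6.62 to 6.70, banded mice without heart failure at 6.63 to 7.51 and those with it at 6.76 to 7.82. Its difference was 0.26 without (limma adjusted p = 0.318) and 0.46 with heart failure (adjusted p = 0.0402). On 1423594_a_at, which was below the filter in sham mouse 3, the means were 4.87 ± 0.86 (SD, n = 5), 5.89 ± 0.43 (n = 7) and 6.61 ± 0.55 (n = 7), and the differences of 1.02 and 1.73 from sham both passed (limma adjusted p = 0.0475 and 0.00062). Sham mice 4 and 5 of the low 18S set read 5.64 and 5.87 there and sham mice 1 to 3 of the high set 3.94 to 4.73. Within the low set its differences from sham were 0.41 and 0.85.

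Ece1, the endothelin-converting enzyme, showed no difference past the test, and its 2 probe sets past the filter disagreed across arrays. On the brightest, 1455741_a_at, sham mice 1 to 5 read 9.89, 9.92, 9.92, 10.20 and 10.35. The other groups ran from 9.95 to 10.54 (median 10.16) without and from 10.05 to 10.35 (median 10.13) with heart failure, inside or close to the sham range. Differences were 0.10 ± 0.10 (SE) and 0.12 ± 0.10 from sham and 0.01 ± 0.09 between the banded groups (limma adjusted p = 0.51, 0.376 and 0.945). The second probe set, 1434177_at, gave 0.12 ± 0.24, -0.36 ± 0.24 and -0.49 ± 0.22 (adjusted p = 0.777, 0.241 and 0.19). The third, 1441423_at, was below the filter on every array.

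The 2 Ece1 probe sets moved in opposite directions between the 18S sets, and correlated with r = -0.54 over the 19 arrays. On 1434177_at all 6 arrays of the high 18S set read 10.01 to 10.66 and all 13 of the low set 9.31 to 9.96. On 1455741_a_at the sham mice of the high set read 9.89 to 9.92 and those of the low set 10.20 and 10.35. Within the low set the difference of 1434177_at between mice with heart failure and sham was 0.09, in place of -0.36 over all arrays. A level of Ece1 read from either probe set therefore depended on which arrays were compared.

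**Figure D2:**
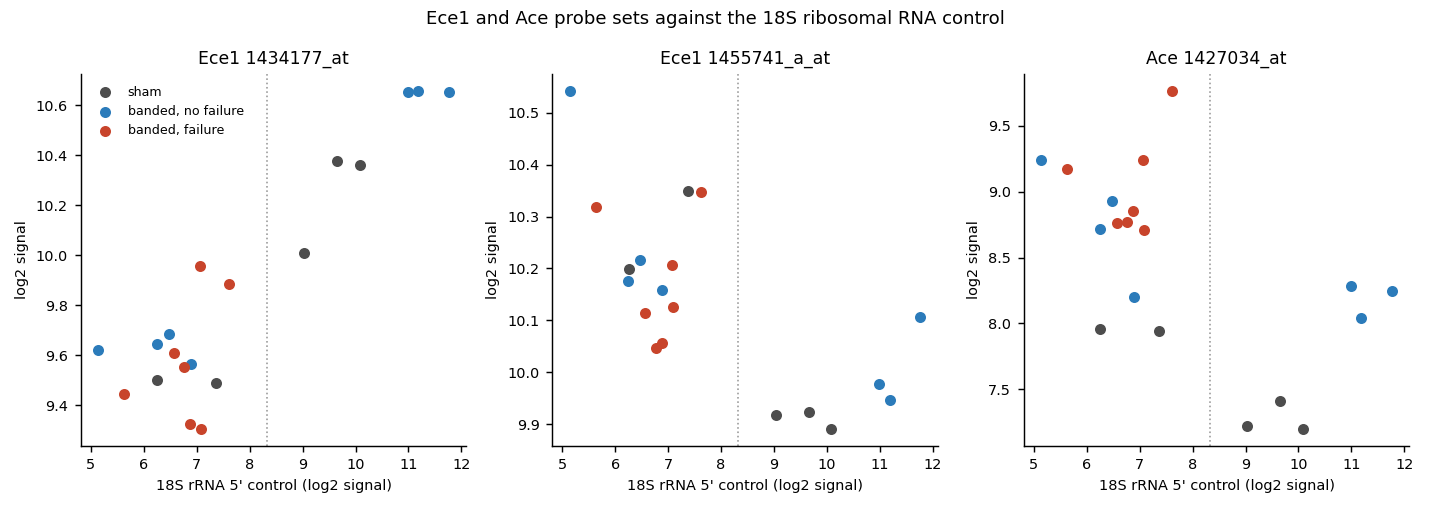
Log2 signal of both Ece1 probe sets and of the brightest Ace probe set (vertical axes) against the log2 signal of the 5' probe set for 18S ribosomal RNA (horizontal axes), 1 point for each of the 19 mice, coloured by group. The dotted line parts the 6 arrays with a high 18S control from the 13 with a low one, and on 1434177_at no array of the low set reaches the high set.

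On the brightest probe sets, the group mean was lowest in sham mice and highest in mice with heart failure for Ace, Edn1, Edn3, Ednrb and Ece1, and the reverse for Agtr1a. The step between the banded groups passed the test for none of these genes. Of all genes tested, 30.5% had means in the order of the first 5. The steps between neighbouring groups were within the spread between mice for Edn1 and Ece1.

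**Figure D3:**
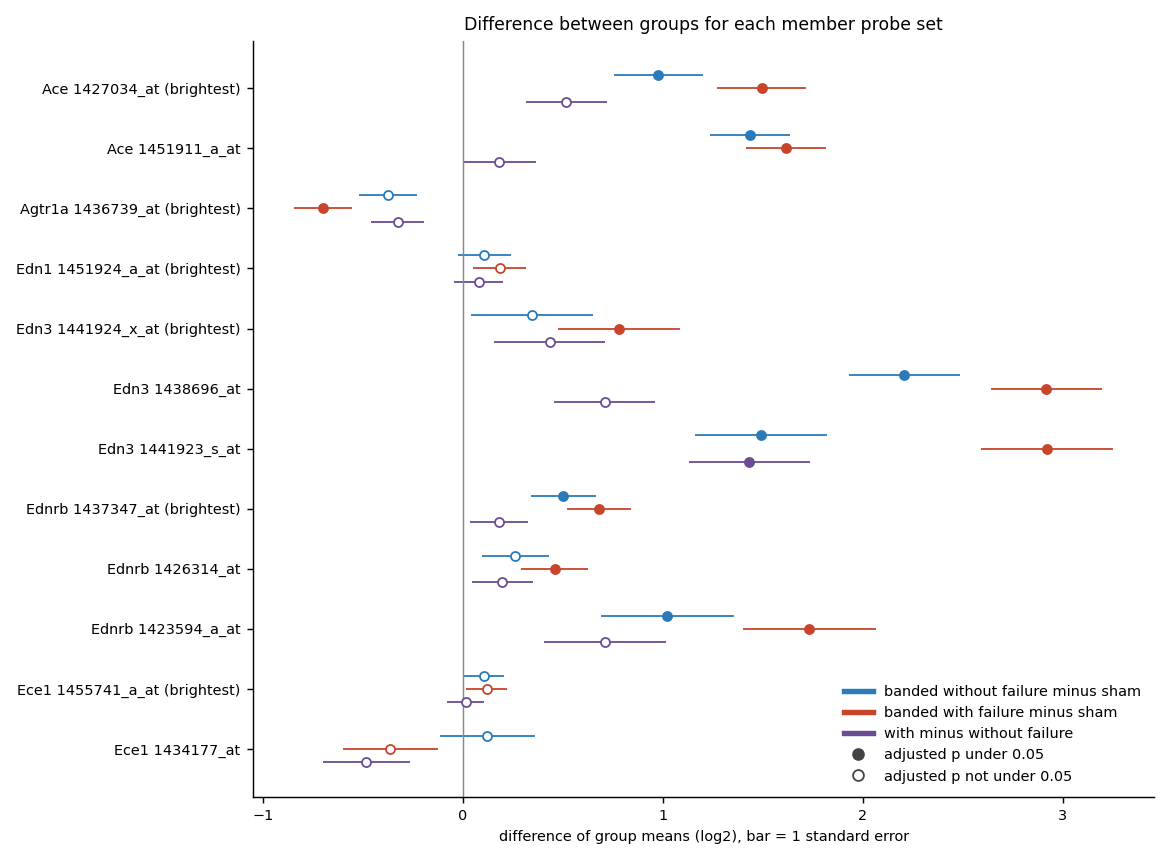
Difference of group means on the log2 scale (horizontal axis) for the 12 tested probe sets of the angiotensin and endothelin genes, with 1 standard error as a bar. Blue is banded without heart failure against sham, red is banded with heart failure against sham and purple is with against without heart failure, and filled points passed at an adjusted p under 0.05. The Edn3 probe sets 1438696_at and 1441923_s_at lie furthest from 0, at 2.92 with heart failure, and Agtr1a is the only one whose red point is filled on the left of 0.

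Mouse by mouse, deviations from the group means described which genes varied like these over the 19 arrays, with no test, since the arrays share the 18S split. Ace and Ece1 varied alike (r = 0.879 on their brightest probe sets), while Edn1 and Ednrb reached 0.301 and Ace and Agtr1a -0.184. In these deviations the Ece1 probe set 1434177_at ran against the brightest one (r = -0.582), so the likeness of Ace and Ece1 depends on the probe set read. The 3 genes most like Ace were Carhsp1, Map3k6 and Esam (r = 0.921, 0.91 and 0.902), and those most like Ece1 were Clcn7, Notch4 and Ubap1 (0.937, 0.901 and 0.898). Esam encodes an adhesion molecule of endothelial cells, and Notch4 an endothelial Notch receptor. Ednrb varied most like Thbs1, which encodes thrombospondin 1, Plat, the tissue plasminogen activator, and Adcy3 (0.854, 0.832 and 0.804). Agtr1a was nearest to Fam126a, Cwc15 and Mettl9 (0.807, 0.792 and 0.791), Edn1 to Agmo, Micu2 and Fmnl2 (0.812, 0.81 and 0.801) and Edn3 to Bmt2, Yars2 and Gm15743 (0.785, 0.738 and 0.694).

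Heart weight gave a further readout that did not enter the choice of genes. The labels' left ventricular index, weight over tibia length, spanned 4.82 to 5.47 in the sham group, and after banding 6.42 to 7.59 without and 8.09 to 9.75 with failure, so relations were read only within each banded group of 7. Of 12 relations of the 6 genes with this index, 0 passed after Benjamini-Hochberg adjustment (1 at an unadjusted p under 0.05). That one was Ace in banded mice without heart failure (Pearson r = 0.834, exact permutation p = 0.0234, adjusted p = 0.281; Spearman rho = 0.857, exact permutation p = 0.0238, adjusted p = 0.286). Without the 2 mice farthest from the median index r was 0.753 (exact permutation p = 0.133). In mice with heart failure the same relation had r = 0.217 and rho = 0.429 (exact permutation p = 0.637 and 0.354). With the lung index, 0 of 12 passed as well, and Edn1 in banded mice without heart failure (r = -0.917, exact permutation p = 0.00873, adjusted p = 0.105; rho = -0.75, exact permutation p = 0.0663) rested on the 2 mice farthest from the median, without which r was -0.475.

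Among 19 other genes of the renin-angiotensin system, 10 passed the filter. In banded mice without heart failure 3 rose and 1 fell, with heart failure 3 rose and 1 fell, and between the banded groups 0 rose and 1 fell. Of all genes, 10.8% rose and 6.53% fell in the first comparison, 20.4% and 18.9% in the second and 3.83% and 5.65% in the third, so the 4 of 10 with heart failure stand beside 39.3% of all genes. The gene that fell each time was Mme, which encodes neprilysin, a peptidase that makes angiotensin 1-7 and degrades natriuretic peptides and endothelin. It was 7.16 ± 0.18 (SD, n = 5) in sham mice, 6.29 ± 0.37 (n = 7) without and 5.05 ± 0.73 (n = 7) with heart failure, and the 3 groups did not overlap. Of all genes, 3.04% and 9.06% lay wholly below sham without and with heart failure, and 1.8% wholly lower with than without it. Mme fell by 2.11 ± 0.28 (SE) on the log2 scale with heart failure (limma adjusted p = 1.14e-05) and by 0.87 ± 0.28 without it (adjusted p = 0.0374), and the banded groups differed by -1.24 ± 0.25 (adjusted p = 0.00661). It was below the filter in 1 mouse with heart failure, so no fold is given. The call without heart failure was lost in 11 of 24 alternatives (limma adjusted p from 0.00485 to 0.806), among them leaving out sham mouse 1, 2, 3 or 4 or banded mouse 1, 4, 6 or 7, with changes of -0.92 to -0.78 (adjusted p 0.0549 to 0.094), and it was -0.15 with the actin covariate (adjusted p = 0.806). The call between the banded groups was lost in the low 18S set alone (-1.22, limma adjusted p = 0.0971, the highest of its alternatives).

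Of the genes that rose, Ctsd, which encodes the lysosomal protease cathepsin D, was 1.22-fold higher without and 1.25-fold higher with heart failure (limma adjusted p = 0.00218 and 0.00023). Its call without heart failure was lost in the low 18S set alone (0.20, limma adjusted p = 0.201) and with the actin covariate (0.19, adjusted p = 0.107), over alternatives from 0.000775 to 0.201. Anpep, which encodes aminopeptidase N, a peptidase that trims angiotensin III, rose to 5.70 ± 0.86 (SD, n = 7) without heart failure from 4.35 ± 0.30 (n = 5), below the filter in 1 sham mouse (log2 change 1.35, limma adjusted p = 0.00793). Read within the low 18S set, that change was 0.61 and did not pass (limma adjusted p = 0.219, over alternatives from 0.000827). With heart failure Anpep differed by 0.52 (adjusted p = 0.217). Thop1, thimet oligopeptidase, which can cut angiotensin I to angiotensin 1-7, was 1.45-fold higher without heart failure (adjusted p = 0.00375) and differed by 0.21 with it (limma adjusted p = 0.153). Within the low set its change without heart failure was 0.29 in place of 0.54 and did not pass (limma adjusted p = 0.381, over alternatives from 0.00108). With heart failure Prcp and Prep, a carboxypeptidase and an endopeptidase that form angiotensin 1-7 or degrade angiotensins, were 1.32-fold and 1.24-fold higher (limma adjusted p = 0.0312 and 0.0225). The Prcp call was lost without sham mouse 1, 2 or 5 or mouse 1, 2, 3 or 4 with heart failure (0.34 to 0.40, adjusted p 0.0505 to 0.0906, over alternatives up to 0.22), and that of Prep without sham mouse 2 or 3 (0.29 and 0.26, adjusted p = 0.0539 and 0.069, over alternatives up to 0.53). With the mean of its probe sets the Prep change was 0.09.

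For the other angiotensin receptors read here the arrays gave no measurable signal. Agtr2, the type 2 angiotensin receptor, never exceeded 2.19, Agtr1b, the second rodent form of the type 1 receptor, 2.21, and Mas1, the receptor of angiotensin 1-7, 2.29. The mast cell chymase genes Cma1 and Mcpt4 reached at most 3.57 and 3.14, also below the filter. Of 5 other endothelin genes, only Ece2, a second converting enzyme, passed the filter. It differed from sham by 0.36 without and 0.31 with heart failure (limma adjusted p = 0.116 and 0.111), and Edn2 never exceeded 2.19. These values say that the probe sets lay near the floor, not that the transcripts were absent. Ren1 and Lnpep are not analysed here.

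Aldosterone acts downstream of angiotensin II, through the mineralocorticoid receptor encoded by Nr3c2. Of 7 genes of this branch 4 passed the filter, and 1 fell without heart failure, 2 with it and 2 between the banded groups, while 0 rose. Of all genes 6.53%, 18.9% and 5.65% fell. Nr3c2 went from 8.05 ± 0.24 (SD, n = 5) through 7.60 ± 0.35 (n = 7) to 6.86 ± 0.45 (n = 7). It was 2.27-fold lower with heart failure than in sham mice (limma adjusted p = 0.000179) and 1.66-fold lower than in banded mice without failure (adjusted p = 0.0199), while the difference without failure, -0.45, did not pass (adjusted p = 0.136). With the actin covariate the change with heart failure was -0.59 in place of -1.18 and did not pass (limma adjusted p = 0.0523, over alternatives from 6.84e-05). The call between the banded groups was lost with the 18S set as a block (-0.67, limma adjusted p = 0.0524) and in the low set alone (-0.60, adjusted p = 0.209, the highest of its alternatives).

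Hsd11b1, whose enzyme regenerates active glucocorticoid, a second ligand of that receptor, went from 9.01 ± 0.05 (SD, n = 5) through 8.44 ± 0.25 (n = 7) to 7.81 ± 0.48 (n = 7). It was 2.3-fold lower with heart failure (limma adjusted p = 5.38e-05), 1.48-fold lower without it (adjusted p = 0.0382) and 1.55-fold lower between the banded groups (adjusted p = 0.0242). The call without heart failure was lost in 12 of 24 alternatives (limma adjusted p from 0.00586 to 0.394), among them leaving out any 1 of the 5 sham mice or banded mouse 1, 3, 6 or 7, with changes of -0.58 to -0.51 (adjusted p 0.0505 to 0.0802). Between the banded groups it was lost without banded mouse 2 or 5 without or mouse 2 or 4 with heart failure (-0.59 to -0.53, adjusted p 0.0513 to 0.0597, over alternatives up to 0.159). The glucocorticoid receptor gene Nr3c1 differed from sham by 0.08 and -0.07 (limma adjusted p = 0.694 and 0.692). The aldosterone synthase gene Cyp11b2 never exceeded 2.20.

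Type 1 angiotensin and endothelin receptors signal through Gq. The list of signalling genes for such receptors held 20 symbols, of which Grk2 and Adrbk1 name the same gene. It included Gna12 and Gna13, which encode subunits of other G proteins than Gq. Of these symbols 17 passed the filter. There were 2 higher and 2 lower without heart failure, 6 higher and 4 lower with it, and 2 higher and 2 lower between the banded groups. The 4, 10 and 4 of 17 that passed stand beside 17.4%, 39.3% and 9.48% of all genes. Grk5, a kinase that desensitises activated receptors, rose from 9.63 ± 0.22 (SD, n = 5) through 10.16 ± 0.24 (n = 7) to 10.77 ± 0.14 (n = 7). It was 1.44-fold higher without heart failure (limma adjusted p = 0.00403), 2.2-fold higher with it (adjusted p = 5.97e-07) and 1.53-fold higher between the banded groups, where all mice with heart failure lay above all mice without it (adjusted p = 0.00296). In that comparison 0.839% of all genes lay wholly above the other group. The Grk5 call without heart failure was lost in the low 18S set alone (0.43, limma adjusted p = 0.198) and with the actin covariate (0.47, adjusted p = 0.0727), over alternatives from 0.00152 to 0.198. Rgs2, which shortens Gq signals by speeding their switching off, fell from 10.62 ± 0.11 (SD, n = 5) to 9.57 ± 0.54 (n = 7) and 9.12 ± 0.45 (n = 7), or 2.08-fold and 2.83-fold (limma adjusted p = 0.0052 and 8.02e-05). The Rgs2 call without heart failure was lost in the high 18S set alone (-0.61 in place of -1.05, limma adjusted p = 0.154) and with the actin covariate (-0.90, adjusted p = 0.0969), over alternatives from 0.000916 to 0.154.

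The protein kinase C genes went both ways. Prkcd was 1.36-fold and 1.72-fold higher than sham without and with heart failure (limma adjusted p = 0.00511 and 7.69e-06), and 1.26-fold higher between the banded groups (adjusted p = 0.0266). Prkce was 1.32-fold and 1.65-fold lower than sham (limma adjusted p = 0.00827 and 1.21e-05) and 1.25-fold lower between the banded groups (adjusted p = 0.0263). Without heart failure both calls were lost in the low 18S set alone (0.44 for Prkcd and -0.43 for Prkce, limma adjusted p = 0.15 and 0.126) and with the actin covariate (0.41 and -0.20, adjusted p = 0.073 and 0.297). That of Prkce was also lost in the high set alone (-0.32, limma adjusted p = 0.0863) and with the mean of its probe sets (-0.06, adjusted p = 0.818). Over their alternatives the adjusted p ran from 0.00219 to 0.15 for Prkcd and from 0.00468 to 0.818 for Prkce. Both calls between the banded groups also hung on single mice. That of Prkcd was lost without banded mouse 2 without or mouse 2 or 7 with heart failure (0.30 to 0.31, limma adjusted p 0.0505 to 0.061, over alternatives up to 0.11), and that of Prkce without banded mouse 2, 5 or 6 without or mouse 1 with heart failure (-0.31 to -0.28, limma adjusted p 0.0552 to 0.0677, over alternatives up to 0.227). The latter was lost with the 18S set as a block too (-0.26, limma adjusted p = 0.0791), and both in the low set alone.

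With heart failure Arrb1, the gene of beta-arrestin 1, was 1.57-fold and Prkca 1.31-fold higher than in sham mice (limma adjusted p = 0.00145 and 0.0201), and Plcb3 and Gna12 were 1.28-fold and 1.18-fold lower (adjusted p = 0.0355 and 0.0288). Gna12 was also 1.28-fold lower with than without heart failure (limma adjusted p = 0.00783), a call lost in the low 18S set alone (-0.22 in place of -0.35, adjusted p = 0.132, the highest of its alternatives). The calls against sham of Prkca, Plcb3 and Gna12 were lost in 5, 12 and 10 of 23 alternatives. Leaving out 1 mouse (sham mouse 1 or 3 for Prkca, sham mouse 1, 2 or 3 or mouse 2, 4, 5 or 6 with heart failure for Plcb3, sham mouse 1, 2 or 3 or mouse 2, 4 or 6 with heart failure for Gna12) gave limma adjusted p of 0.0512 to 0.11, over alternatives up to 0.82.

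**Figure D4:**
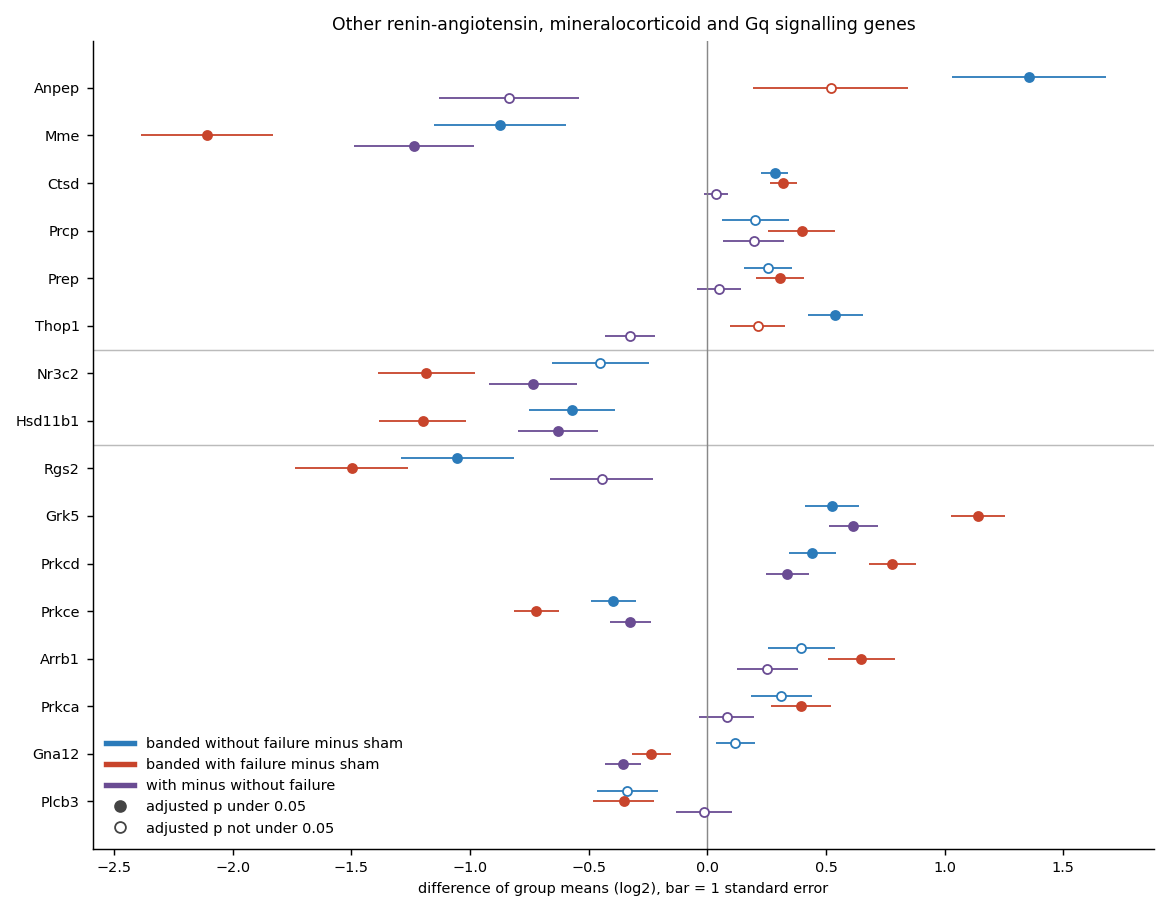
Difference of group means on the log2 scale (horizontal axis, bar of 1 standard error) for the named genes of the renin-angiotensin list (top), the mineralocorticoid list (middle) and the Gq signalling list (bottom). Colours are as for the angiotensin and endothelin probe sets, and filled points passed at an adjusted p under 0.05. Mme, Nr3c2, Hsd11b1, Rgs2, Prkce and Plcb3 lie to the left of 0 in every comparison, and Ctsd, Prcp, Prep, Grk5, Prkcd, Arrb1 and Prkca to the right.

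Markers of the cell types that make or bind these peptides were read in the same fits. Their counts stand beside the 10.8%, 20.4% and 3.83% of all genes that rose and the 6.53%, 18.9% and 5.65% that fell in the 3 comparisons. Of 13 endothelial markers 2 rose without heart failure (Tie1 and Robo4) and 4 with it (Pecam1, Tie1, Esam and Robo4), and 1 fell between the banded groups (Cdh5). Their summed linear signal lay at 12600 to 13700 for sham, 14300 to 17400 for banded hearts that had not failed and 12500 to 16800 for those that had. Of 4 tested endocardial markers, Npr3 rose without heart failure, Npr3 and Plvap with it and Plvap between the banded groups, while Hapln1 was near the floor at 2.72 or less. Of 11 fibroblast markers 8, 10 and 6 rose, with sums of 29000 to 52200, 41500 to 77200 and 78500 to 105000. Of 11 pericyte and smooth muscle markers 4 rose (Pdgfrb, Cspg4, Notch3 and Des) and 1 fell (Abcc9) without heart failure. Rgs5, Kcnj8, Myh11, Acta2, Tagln and Cnn1 did not pass there. The sums were 48000 to 52800 in sham mice and 54800 to 63200 in banded mice without heart failure. With heart failure 4 rose and 2 fell, with sums of 53300 to 60000. Abcc9 and Kcnj8, both of this list, fell between the banded groups.

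Of 10 macrophage markers 0 passed in any of the comparisons. Of 6 mast cell markers 1 passed the filter, and it passed in no comparison. Of 10 cardiomyocyte markers 1 rose without heart failure, and 1 rose and 5 fell with it, with sums of 444000 to 490000 in sham mice and 425000 to 458000 with heart failure, and Tnni3 and Ckm fell between the banded groups. Of 5 atrial markers Nppa rose and Kcnj3 fell in both comparisons with sham, with sums of 10500 to 30800 in sham mice, 37300 to 66800 without and 44200 to 90000 with heart failure. Nppa was the brightest of them, with means of 13.29, 15.21 and 15.47. The mean sums were thus mostly Nppa signal and say little of the other atrial markers. Between the banded groups Kcnj3 and Myl7 fell (by 0.80 and 4.93, limma adjusted p = 0.00972 and 0.0457), and Myl7 varied from mouse to mouse with an SD of 4.40 in heart failure. Against sham Myl7, Myl4 and Sln differed by -3.69, -1.56 and -1.71 with heart failure and did not pass (limma adjusted p = 0.0825, 0.284 and 0.41). The part of these shifts in the changes of Ace, Agtr1a, Edn3 and Ednrb was not tested.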

How the data were processed

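Per the submitters' processing notes, GCRMA (no version stated) gave the log2 signals that the authors deposited. It corrects background by probe sequence, normalises across arrays and summarises probe sets, which compresses the changes of dim genes. The values ran from 2.19 to 16.77 with array medians of 2.85 to 2.99. Precision is limited by how many arrays there are. Gene symbols came from the platform annotation in GEO. Groups were compared in limma 3.58.1 (R 4.3.3, lmFit and eBayes) over all 19 arrays with group as the only term. P-values were adjusted by Benjamini-Hochberg over 10733 genes, or over 20497 probe sets for those beside the brightest, at a threshold of 0.05. Errors of changes are standard errors, and the fit was tested on simulated data. Marker sums add the linear signals of a list's tested genes.

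The genes and lists were chosen with earlier results of these data known. Named from the pathway lists were all genes past the threshold in any comparison, or, where over 8 passed, the 8 with the largest change. Marker genes were named where 5 or fewer passed, and no fold is given where an array was below the filter. Correlations used exact permutation tests (scipy 1.17.1, pandas 2.3.3, numpy 2.4.6, Python 3.11.15), and matplotlib 3.10.9 drew the figures. Alternatives covered the filter, the probe set, the scaling, the moderation, the samples fitted, the 18S sets, the series of animal IDs and the actin difference.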

Additional observations from a re-analysis of the deposited data

Results flagged for a closer look

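Of 36 sets of values (1 probe set in 1 group) 2 held a mouse that stood apart from the rest, where about 5% are flagged by chance. On the Ace probe set 1451911_a_at, banded mouse 2 without heart failure read 8.03, and the nearest of its group 8.55, a gap of 0.588 of the group's range. On the Edn3 probe set 1441924_x_at, banded mouse 1 without heart failure read 8.50, and the nearest 7.44, a gap of 0.59 of the range.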

How the results depend on the processing

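In banded mice without heart failure against sham, 2 of the 6 tested genes passed. With no filter and with quantile normalisation repeated 1 passed (Ace), in the low 18S set alone and with the actin difference as a covariate 0 passed, and without 1 mouse at a time 1 to 2 passed. With the mean of probe sets (Ace, Edn3 and Ednrb) and with the ID series as a block (Ace, Agtr1a and Ednrb) 3 passed. Between the banded groups 0 passed, but 1 did with the mean of probe sets (Edn3) and with the actin covariate (Ace), and 0 to 1 without 1 mouse at a time. With heart failure against sham 3 to 4 passed: Ace, Agtr1a and Ednrb in every setting, Edn3 in some, and Edn1 in place of Edn3 with the 18S block. Signs turned for uncalled genes and for Edn3. Edn3 became -0.49 without and -0.0453 with heart failure under the actin covariate, and Edn1 between the banded groups -0.0118 without banded mouse 2 (without 1 mouse at a time -0.0118 to 0.138). Ece1 became -0.00101 (low set) and -0.20 (actin) without heart failure. With heart failure it became -0.12 (mean of probe sets), -0.0646 (18S block), -0.10 (low set), -0.18 (actin) and -0.36 (1434177_at). Between the banded groups it became -0.24 (mean), -0.12 (18S block), -0.10 (low set), -0.0294 (ID series), -0.49 (1434177_at) and -0.0221 to 0.0769 without 1 mouse at a time, below 0 for 4 mice. The cause was not tested.

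Of 10733 genes, 1865 passed without heart failure, but 343 in the low set, 1199 with the actin covariate and 1185 without sham mouse 2. With heart failure 4220 passed, but 2670 and 2705 in the first 2 of these settings. Between the banded groups 1017 passed, but 149 in the low set and 508, 672, 681 and 599 without mouse 5 or 6 without or mouse 1 or 2 with heart failure. The split into higher and lower moved from 1164 and 701 to 902 and 926 with quantile normalisation and to 1519 and 473 with equal array medians, and with heart failure from 2193 and 2027 to 1794 and 2586 with quantile normalisation. The high 18S set held no mice with heart failure and gives no value there. No paired analysis was made, because each mouse belonged to 1 group and gave 1 array. Signals near the floor limit what Agt and the undetected genes can show.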
